A study of Mus musculus with 6 samples.

Results

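The S100 genes described here are S100a1, S100a4, S100a6, S100a10, S100a11, S100a13, S100a14 and S100a16, chosen by name, and all 8 were among the 11417 genes of the deposited table. Each encodes a small protein of the S100 calcium-binding family, and all 8 lie on mouse chromosome 3. Their RNA was measured as RPKM (reads per kilobase of gene length and per 1000000 reads) in poly(A) RNA of 3 untreated mouse mammary epithelial cell lines grown on plastic, BC44, HC11 and C57MG, with 2 replicate libraries per line and 6 in all. All media held 10% serum. BC44 and HC11 grew in RPMI plus insulin at 5 µg/ml, with EGF (epidermal growth factor) at 10 ng/ml for HC11 alone, and C57MG grew in DMEM plus insulin at 10 µg/ml. Because each line had its own medium, line and medium cannot be told apart. Nothing in the labels says that the replicates came from separate cultures, so the p-values measure only the spread between these libraries, which may be technical.

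S100 proteins are small, mostly dimeric proteins that bind calcium through a pair of EF-hand loops. On binding calcium most of them expose a hydrophobic face that docks partner proteins such as annexins and non-muscle myosin. In the mammary gland and other epithelia some members, such as S100a14, are typical of epithelial cells, while S100a4 is widely used as a marker of fibroblasts and of motile cells. Among S100 proteins, S100a10 is an exception in that its loops no longer bind calcium.

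The estimated depth was 14300000 to 18580000 reads per library, and 9706 to 9895 genes had at least 1 RPKM. The labelled cell type was checked against markers. Of 8 listed epithelial markers, 6 were at or above 1 RPKM in each BC44 library and 8 in each HC11 library, but only 3 and 1 in C57MG replicates 1 and 2. Epcam, an epithelial adhesion molecule, was at 0.949 and 0 RPKM in C57MG, and Vim, the mesenchymal intermediate filament, was at 2708 and 2282 RPKM there. Krt14, a basal keratin on the epithelial list, was the exception, at 118 and 64.8 RPKM in C57MG. It made up most of the epithelial sum there (136.9 and 65.5 RPKM), but was at 2716 and 2736 RPKM in BC44. By most of the listed markers, though not by Krt14, the C57MG libraries therefore went against the label mammary epithelial. Krt18, a luminal keratin, was listed at 0 in both BC44 libraries.

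Sequence just before the start sites was taken from RefSeq for the mouse build GRCm38.p6, whereas the submitters' processing notes name the build mm9. Windows were found for 6 of the 8 genes (not for S100a10 and S100a14). Windows are shown for S100a4, whose RNA differed most between lines by ratio among the genes with a window, and for S100a11, whose RNA differed least. The third sequence is the stretch between the head-to-head starts of S100a1 and S100a13. Each reads 5′ to 3′ on the plus strand, and capitals mark matches to the motifs described in the next paragraph.
S100a4, 250 bases before the start, chr3:90603520-90603769: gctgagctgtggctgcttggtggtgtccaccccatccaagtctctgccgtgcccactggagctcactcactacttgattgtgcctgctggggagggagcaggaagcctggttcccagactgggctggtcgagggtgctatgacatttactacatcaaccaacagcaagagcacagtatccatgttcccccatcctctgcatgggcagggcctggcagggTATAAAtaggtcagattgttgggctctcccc
S100a11, 250 bases before the start, chr3:93520246-93520495: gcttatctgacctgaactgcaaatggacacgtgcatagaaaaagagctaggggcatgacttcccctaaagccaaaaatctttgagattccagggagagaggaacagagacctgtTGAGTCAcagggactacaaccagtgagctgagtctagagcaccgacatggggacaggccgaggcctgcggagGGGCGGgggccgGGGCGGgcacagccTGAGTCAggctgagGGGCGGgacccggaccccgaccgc
S100a1 to S100a13, 104 bases, chr3:90514331-90514434: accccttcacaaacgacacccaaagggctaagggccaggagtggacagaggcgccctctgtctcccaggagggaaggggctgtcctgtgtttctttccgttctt

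The S100a4 window held 1 match to the TATA box TATAAA, 31 bases before the start, and 2 CpG dinucleotides. The S100a11 window held 3 matches to the GC box GGGCGG, 2 matches to the AP-1 motif TGANTCA, and 11 CpG dinucleotides. Among 32841 windows of the same length, 12.4% held this TATA box, 32.7% this GC box and 6.8% this AP-1 motif on either strand, and the median window had 6 CpG dinucleotides. The 104 bases between S100a1 and S100a13 held no match to any of the 6 motifs searched. The other motifs were CCAAT (33.9% of windows), the E-box CACCTG bound by Snail and Zeb factors (17.2%) and the Grainyhead motif AACCNGTT (1.8%), GRHL factors being named in the title of the series. None of the 7 member windows, which include 2 for S100a16, held the Grainyhead letters. None of the matches overlapped another. A match is a description of letters and does not show a site in use.

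C57MG had the largest summed level of S100 RNA, and S100a4 made up most of it. The summed level of the 8 genes was 6565 and 6528 RPKM in C57MG replicates 1 and 2, against 2118 and 2173 RPKM in BC44 and 2099 and 1896 RPKM in HC11. That sum was 2.03% and 2.05% of all RPKM in C57MG, and 0.547% to 0.654% in the other 4 libraries. S100a4 made up 57.1% ± 1.42 of the S100 sum in C57MG, but 3.04% ± 1.29 in BC44 and 2.05% ± 0.255 in HC11 (SD, n = 2 each). In BC44 and HC11 the largest share was S100a11, with 48.4% ± 1.27 and 54.4% ± 0.64 (SD, n = 2 each). S100a14 was 11.25% ± 0.238 of the sum in BC44, 1.21% ± 0.515 in HC11 and 0.0285% ± 0.0205 in C57MG (SD, n = 2 each). In RNA of whole cultures, fewer cells that express a gene and less of its RNA per cell cannot be told apart.

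**Figure D1:**
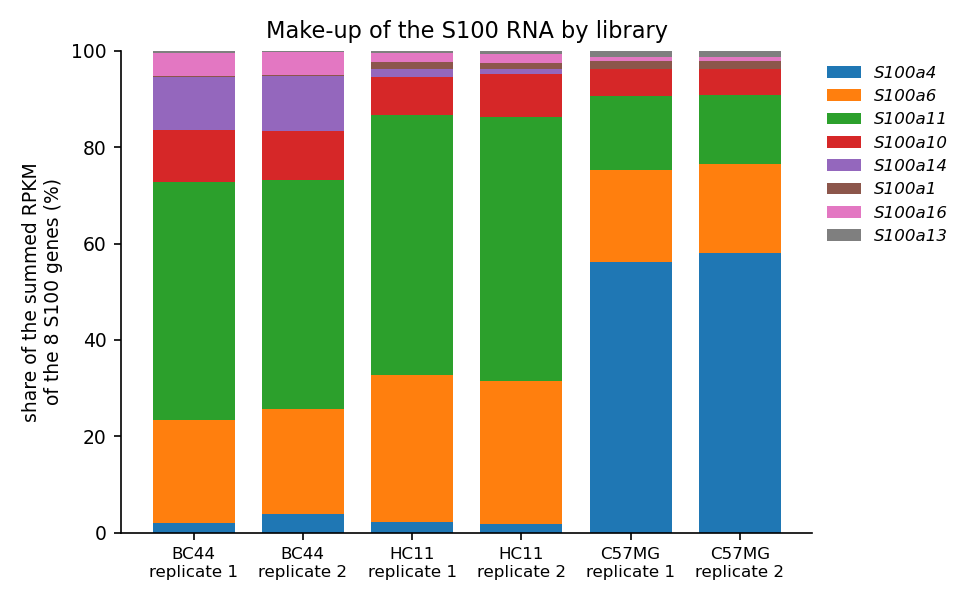
Stacked bars give each gene's share (%) of the summed RPKM of the 8 S100 genes in each of the 6 libraries. S100a4 takes 56.1% and 58.1% in the C57MG libraries and at most 3.96% in the others, where S100a11 is the largest part.

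Levels were compared between lines with limma on log2(RPKM + 1) over 10759 genes, with p-values adjusted by the Benjamini-Hochberg method and a threshold of 0.05, and fold changes on this scale understate those of low genes. All 8 members passed the filter on low values. Between BC44 and HC11 5 of the 8 differed, 3 higher in BC44 (S100a10, S100a14 and S100a16) and 2 higher in HC11 (S100a1 and S100a6). Of all tested genes 47.7% differed in that comparison, 24.7% higher in BC44 and 23.0% higher in HC11. Between BC44 and C57MG 7 of 8 differed, 2 higher in BC44 (S100a14 and S100a16) and 5 higher in C57MG, against 71.7% of all genes (37.5% and 34.1%). Between HC11 and C57MG 7 of 8 differed, 1 higher in HC11 (S100a14) and 6 higher in C57MG, against 70.5% of all genes (37.4% and 33.2%). Both comparisons with C57MG share its libraries. The counts of members called were therefore near the background shares, while the differences of these 8 chosen genes were larger in size, which is a description with no test. The median absolute log2 fold change of the members was 0.51, 2.33 and 1.43 in the 3 comparisons in this order, and that of all tested genes was 0.29, 0.57 and 0.53. A called difference of at least 1 on the log2 scale was found for 3, 5 and 6 of the 8, and for 12.5%, 29.8% and 27.0% of all genes.

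**Figure D2:**
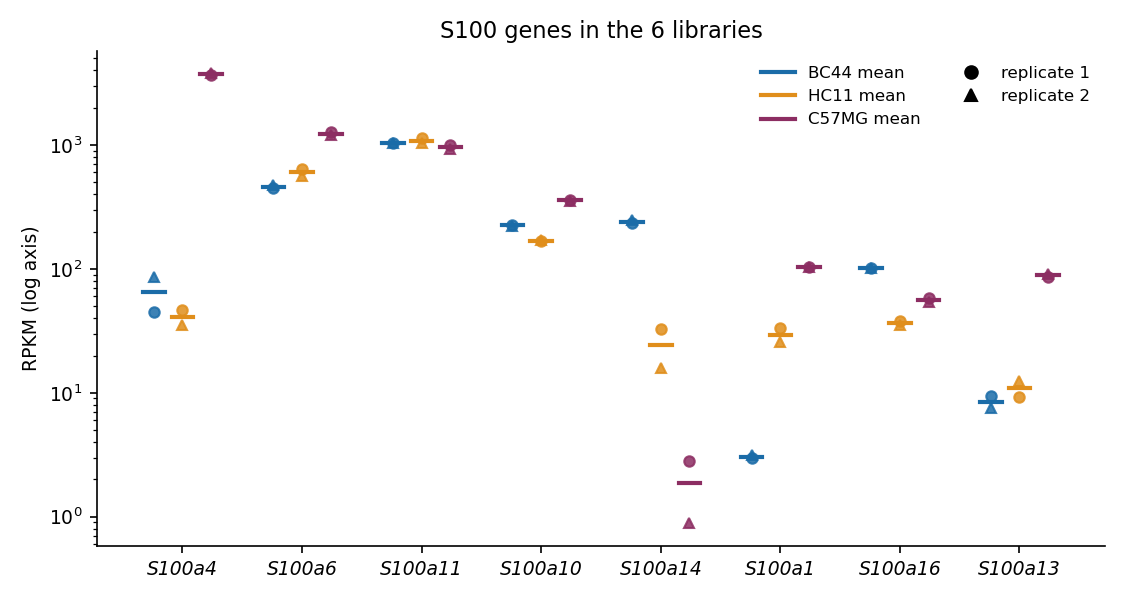
RPKM (log axis) of each S100 gene in each library, with circles for replicate 1, triangles for replicate 2 and a bar at the mean of each line. S100a11 sits near 1000 RPKM in every library, S100a4 is high only in the C57MG libraries, and S100a14 falls from BC44 through HC11 to C57MG.

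S100a4 (ENSMUSG00000001020), also called fibroblast-specific protein or metastasin, binds the heavy chain of non-muscle myosin and is linked to cell motility. Its level was 3684 and 3794 RPKM in C57MG, 45.1 and 86.0 RPKM in BC44 and 46.8 and 35.4 RPKM in HC11. The C57MG libraries stood far above the other 4, which overlapped between BC44 and HC11. S100a4 ranked at position 2 of 11417 genes in each C57MG library, and between positions 686 and 1969 elsewhere. The ratio of mean RPKM was 57.04 for C57MG over BC44 and 91.0 for C57MG over HC11. The log2 fold change was -5.88 (limma, SE 0.27, adjusted p = 1.06e-06) for BC44 against C57MG and -6.49 (SE 0.27, 8.22e-07) for HC11 against C57MG. Between BC44 and HC11 it was 0.60 (95% interval -0.03 to 1.24, limma adjusted p = 0.106). That comparison turned on BC44: without BC44 replicate 1 it was 1.06 (limma adjusted p = 0.00729) and without BC44 replicate 2 it was 0.14 (0.549).

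The BC44 libraries differed in the same order for S100a4 and for all 7 listed fibroblast markers. Fn1 (232.4 and 235.2 RPKM) and Pdgfra (0.954 and 0.987 RPKM) were almost equal in BC44 replicates 1 and 2. S100a4 in BC44 was at 1.21% and 2.30% of its C57MG mean in replicates 1 and 2. The 6 fibroblast markers with at least 20 RPKM in C57MG were at a median of 1.17% (range 0.609% to 35.2%) and 2.56% (range 1.90% to 35.7%) of their C57MG mean in the same libraries. In HC11 the medians of these markers were 0.107% and 0.123%, and S100a4 was at 1.25% and 0.948%. Summed over the 7 listed fibroblast markers, the level was 252.5 and 294.5 RPKM in BC44, 205.5 and 290 RPKM in HC11, and 3654 and 3312 RPKM in C57MG. No listed marker was at 0. The part of such cells in the S100a4 level of BC44 was not tested.

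**Figure D3:**
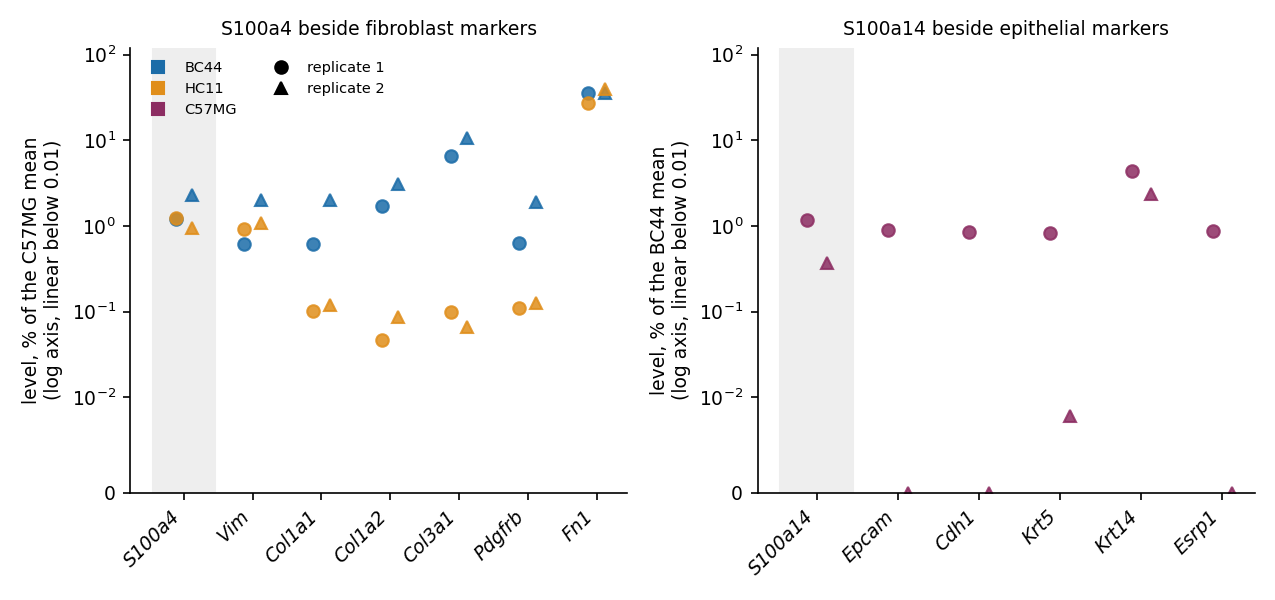
Left, S100a4 (shaded) and 6 fibroblast markers in BC44 and HC11 as % of the C57MG mean. Right, S100a14 (shaded) and 5 epithelial markers in C57MG as % of the BC44 mean. Axes are logarithmic and linear below 0.01. BC44 replicate 2 lies above replicate 1 for S100a4 and the collagen genes, and C57MG replicate 1 lies above replicate 2 for S100a14 and every epithelial marker shown.

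S100a14 (ENSMUSG00000042306), a member typical of epithelial cells, had the opposite pattern. It was at 235 and 248 RPKM in BC44, 33.0 and 15.97 RPKM in HC11 and 2.83 and 0.887 RPKM in C57MG. No libraries overlapped between lines, although the replicates of HC11 and of C57MG were well apart. The mean of BC44 was 9.86 times that of HC11 and 130 times that of C57MG. The log2 fold change was 3.33 (limma, SE 0.38, adjusted p = 3.72e-04) for BC44 against HC11, 6.49 (SE 0.38, 3.87e-06) for BC44 against C57MG and 3.16 (SE 0.38, 2.04e-04) for HC11 against C57MG. These sizes turned on single libraries, while the calls did not. BC44 against C57MG was 7.004 without C57MG replicate 1 and 5.985 without replicate 2, and BC44 against HC11 was 3.835 without HC11 replicate 1 and 2.83 without replicate 2. HC11 against C57MG ran from 2.65 to 3.67 when single libraries were left out. The C57MG values rested on an estimated 88 and 24 reads. They were 1.17% and 0.368% of the BC44 mean in C57MG replicates 1 and 2. The 5 epithelial markers with at least 20 RPKM in BC44 were Epcam, Cdh1, Krt5, Krt14 and Esrp1. In the same C57MG libraries these had medians of 0.876% (range 0.836% to 4.33%) and 0% (range 0% to 2.38%), with Krt14 the highest. Krt8, Krt18 and Cldn4 were below that limit in BC44, and at most 0.503 RPKM in C57MG. The summed level of the 8 listed epithelial markers was 136.9 and 65.5 RPKM in C57MG, 3057 and 2185 RPKM in HC11 and 5040 and 4828 RPKM in BC44. The part of such cells in the S100a14 level of C57MG was not tested.

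S100a16 (ENSMUSG00000074457), a broadly expressed member that is the next gene after S100a14, was also highest in BC44 but not lowest in C57MG. Its level was 102.5 and 101.8 RPKM in BC44, 58.6 and 54.2 RPKM in C57MG and 38.3 and 35.2 RPKM in HC11. The lines did not overlap, and the replicates lay close together. All 3 differences passed, with log2 fold changes of 1.45 for BC44 against HC11 (limma, SE 0.08, adjusted p = 1.08e-05), 0.85 for BC44 against C57MG (SE 0.08, 4.58e-05) and -0.60 for HC11 against C57MG (SE 0.08, 3.24e-04). S100a14 and S100a16 thus had C57MG and HC11 in opposite order.

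S100a1 (ENSMUSG00000044080), best known in heart muscle where it acts on calcium handling, was graded over the 3 lines. It was at 103.4 and 102.9 RPKM in C57MG, 33.2 and 25.8 RPKM in HC11 and 2.96 and 3.14 RPKM in BC44. The BC44 values rested on an estimated 30 and 38 reads. The log2 fold change was -2.90 (limma, SE 0.12, adjusted p = 3.25e-06) for BC44 against HC11, -4.69 (SE 0.12, 2.71e-07) for BC44 against C57MG and -1.78 (SE 0.12, 8.56e-06) for HC11 against C57MG. The ratio of means was 9.69 for HC11 over BC44 and 33.9 for C57MG over BC44.

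S100a13 (ENSMUSG00000042312), which takes part in the release of proteins that lack a signal peptide such as Fgf1, starts head to head with S100a1. Its level was 86.8 and 91.1 RPKM in C57MG, 9.47 and 7.53 RPKM in BC44 and 9.26 and 12.5 RPKM in HC11. As with S100a1, the C57MG libraries were the highest. Unlike S100a1, the BC44 and HC11 libraries overlapped. The log2 fold change was -3.25 (limma, SE 0.15, adjusted p = 1.12e-06) for BC44 against C57MG and -2.93 (SE 0.15, 2.27e-06) for HC11 against C57MG. For BC44 against HC11 it was -0.32 (95% interval -0.67 to 0.04, limma adjusted p = 0.126), and without HC11 replicate 1 it was -0.51 (0.0333). It was -0.12 (limma adjusted p = 0.54) without HC11 replicate 2 and -0.17 (0.491) without BC44 replicate 2. The difference between the paired genes in that comparison was not tested. Fgf1 was at 1.56 and 0.912 RPKM in BC44, 0.238 and 0.684 RPKM in C57MG and 0.081 and 0.075 RPKM in HC11, and was not tested because it had at least 1 RPKM in too few libraries.

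S100a6 (ENSMUSG00000001025), also called calcyclin, was abundant in every library and highest in C57MG. It was at 1263 and 1195 RPKM in C57MG, 639 and 561 RPKM in HC11 and 452 and 471 RPKM in BC44. The lines did not overlap, and S100a6 ranked between positions 11 and 75 of all genes. The ratio of means was 2.66 for C57MG over BC44 and 2.05 for C57MG over HC11, with log2 fold changes of -1.41 (limma, SE 0.09, adjusted p = 5.90e-06) for BC44 against C57MG and -1.04 (SE 0.09, 3.55e-05) for HC11 against C57MG. For BC44 against HC11 the log2 fold change was -0.37 (limma, SE 0.09, adjusted p = 0.0119). This small difference did not pass without BC44 replicate 1 (-0.34, 0.0855) or without BC44 replicate 2 (-0.40, 0.0545).

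S100a10 (ENSMUSG00000041959), also called p11, pairs with annexin A2 at the cell membrane and helps to bind plasminogen there. It was at 362 and 354 RPKM in C57MG, 228 and 224 RPKM in BC44 and 168 and 171 RPKM in HC11. The lines did not overlap and the replicates were close. All 3 differences passed and were modest, with log2 fold changes of 0.41 for BC44 against HC11 (limma, SE 0.07, adjusted p = 0.0021), -0.66 for BC44 against C57MG (SE 0.07, 7.21e-05) and -1.07 for HC11 against C57MG (SE 0.07, 6.16e-06).

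S100a11 (ENSMUSG00000027907), also called calgizzarin, is a partner of annexin A1. It was at 1044 and 1032 RPKM in BC44, 1131 and 1039 RPKM in HC11 and 1005 and 937 RPKM in C57MG, and it ranked between positions 17 and 22 in all 6 libraries. No difference between lines passed. The log2 fold change was -0.06 (95% interval -0.26 to 0.14, limma adjusted p = 0.577) for BC44 against HC11. It was 0.10 (-0.10 to 0.30, limma adjusted p = 0.336) for BC44 against C57MG and 0.16 (-0.04 to 0.36, 0.128) for HC11 against C57MG, and both signs turned under quantile normalization (-0.15 and -0.10). Without HC11 replicate 2 the last of these was 0.22 and passed (limma adjusted p = 0.0495). A processed pseudogene of S100a11 is annotated, and how shared reads were assigned is not given in the sources used here.

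**Figure D4:**
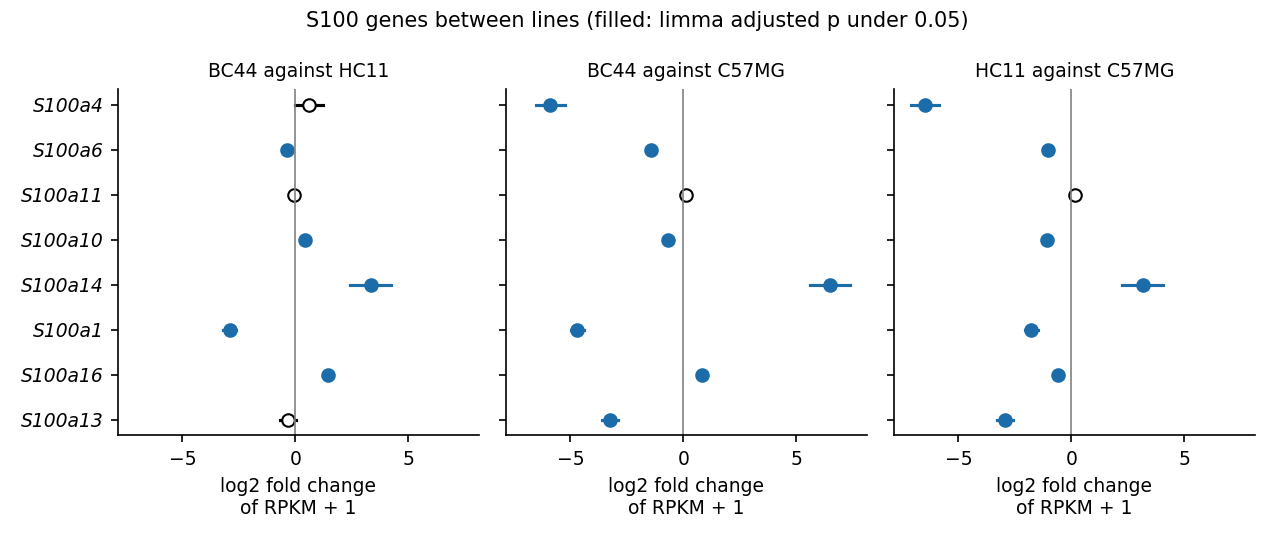
Log2 fold change of RPKM + 1 with its 95% interval for the 8 S100 genes in the 3 comparisons, with filled blue points for limma adjusted p-values under 0.05 and open black points for the rest. S100a14 lies right of 0 in all 3 panels, S100a1 left of 0 in all 3, and S100a11 is open in all 3.

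The libraries of the lines compared did not overlap for 5, 8 and 8 of the 8 members in the 3 comparisons, in the order given above. For all tested genes this was so in 73.0%, 87.9% and 86.2%. The order of the lines was C57MG, HC11, BC44 for S100a1, S100a6 and S100a13, with HC11 and BC44 not separated for S100a13. It was C57MG, BC44, HC11 for S100a10 and for S100a4, where BC44 and HC11 were not separated. It was BC44, HC11, C57MG for S100a14 and BC44, C57MG, HC11 for S100a16. For S100a11 it was HC11, BC44, C57MG, with HC11 and BC44 overlapping and no difference past the test.

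The members sit in 2 runs on chromosome 3, within which some neighbours had the same direction and others opposite ones. Along the chromosome the first run reads S100a1, S100a13, S100a14, S100a16, S100a4 and S100a6, with S100a3 between S100a16 and S100a4. S100a1 and S100a13, and likewise S100a3, S100a4 and S100a6, were all lower in BC44 and in HC11 than in C57MG. S100a13 and S100a14, which are adjacent, had log2 fold changes of -3.25 and 6.49 for BC44 against C57MG. The second run holds S100a11 and S100a10. S100a7a, S100a8 and S100a9, also of the family, were not placed in this order and are described below. Of the 12 neighbouring tested genes outside the family, 3 were higher in BC44 and 3 in HC11 in BC44 against HC11, and 6 did not pass. Against C57MG, BC44 was higher for 6 and lower for 3 of the 12, and the counts were the same for HC11. Over all tested genes, 47.7% differed between BC44 and HC11, 71.7% between BC44 and C57MG and 70.5% between HC11 and C57MG. The largest differences among neighbours were those of Sprr1b, Pglyrp3 and Sprr2h, genes of skin and mucosal barriers. Sprr1b was at 50.2 and 92.0 RPKM in BC44, 12.9 and 24.3 RPKM in HC11 and 0.877 and 0.079 RPKM in C57MG. Pglyrp3 was at 6.43 and 7.40 RPKM in BC44 and 13.3 and 20.4 RPKM in HC11, and at 0.05 and 0 RPKM in C57MG. Sprr2h belongs to a family of closely related copies, so its level (20.9 RPKM at most) is uncertain. Sprr2h passed the filter on low values only through HC11, and Kprp, another neighbour counted here, only through BC44.

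**Figure D5:**
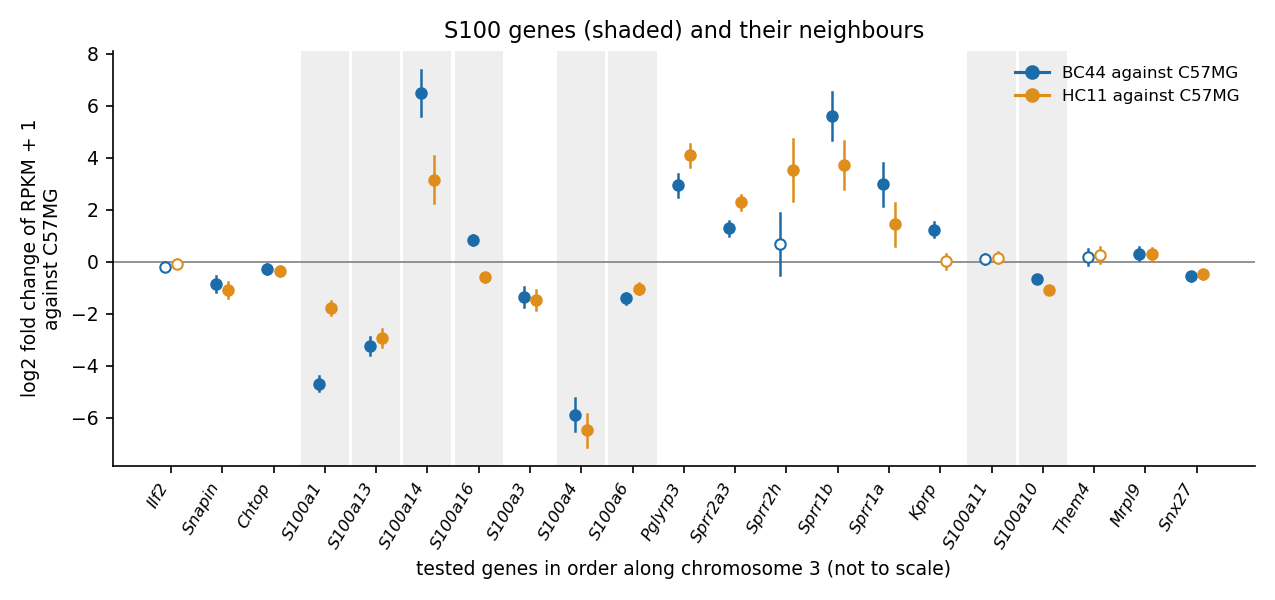
Log2 fold change of RPKM + 1 against C57MG, with 95% intervals, for BC44 (blue) and HC11 (orange). Shown are the 8 members, S100a3 and neighbouring genes outside the family, in chromosome order and not to scale. Members are shaded and open points did not pass. S100a13 lies at -3.25 and the next gene, S100a14, at 6.49 for BC44.

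Other genes of the family or related to it came from a list of 18, of which 6 were in the table and all 6 were tested. S100a8 and S100a9, the subunits of the antimicrobial protein calprotectin, were highest in HC11. S100a8 was at 41.6 and 91.9 RPKM in HC11 and 10.3 and 10.1 RPKM in C57MG, and was listed at 0 in both BC44 libraries. S100a9 was at 4.23 and 14.3 RPKM in HC11 and was listed at 0 in the other 4. A count of 0 allows up to 3 reads, worth 0.248 to 0.296 RPKM for S100a8 in BC44 and 0.318 to 0.394 RPKM for S100a9 in BC44 and C57MG, by counting error alone. For S100a8, HC11 differed from BC44 and from C57MG (limma adjusted p = 7.95e-06 and 2.29e-04). S100a9 passed the filter on low values only through its HC11 libraries, so its test gives no further support. Calprotectin is abundant in neutrophils and other myeloid cells, and of 7 leukocyte markers 3 were listed, without Ptprc, with summed levels of 3.39 and 3.63 RPKM in BC44, 22.3 and 34.9 RPKM in HC11 and 32.1 and 31.1 RPKM in C57MG. Most of the HC11 sum was Cd14 (19.6 and 31.9 RPKM), whereas Lyz2, a myeloid lysozyme, was at 0.17 and 0.276 RPKM in HC11, 0.162 and 0.317 RPKM in BC44 and 18.6 and 17.2 RPKM in C57MG. None of the 3 was at 0, and their part in the S100a8 level was not tested.

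S100a7a, a skin member, was at 2.11 and 8.10 RPKM in HC11 and at most 0.851 RPKM elsewhere (log2 fold change -1.65 for BC44 against HC11). Like S100a9, it passed the filter on low values only through HC11, so its test gives no further support. Both genes are among those counted below as higher in HC11. S100a3 was at 14.4 and 15.3 RPKM in C57MG and 4.23 to 6.44 RPKM in the other lines. Its locus overlaps an annotated gene that also overlaps S100a4, so reads of the neighbours may not be told apart. Of the 6 listed genes, between BC44 and HC11, 3 were higher in HC11 and 3 did not pass. The median log2 fold change was -0.90, against 0.02 for all tested genes. In BC44 against C57MG 1 was higher in BC44 and 2 in C57MG, and in HC11 against C57MG 4 were higher in HC11 and 2 in C57MG. The shares of all tested genes that differed were 47.7% for BC44 against HC11, 71.7% for BC44 against C57MG and 70.5% for HC11 against C57MG.

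Partners of the members were taken from lists of 12 annexins, of which 10 were tested, and of 21 other partners and receptors, of which 17 were tested. Annexins are proteins that bind membranes in the presence of calcium. Between BC44 and HC11 1 annexin was higher in BC44 and 5 in HC11. Against C57MG 3 were higher and 4 lower in BC44, and the same counts held for HC11. In either direction, 47.7% of all tested genes differed between BC44 and HC11. Against C57MG 71.7% differed for BC44 and 70.5% for HC11. Anxa2, the partner of S100a10, was at 383 and 357 RPKM in C57MG, 205 and 231 RPKM in HC11 and 179 and 182 RPKM in BC44. C57MG had the highest level of both genes of this pair, and BC44 and HC11 were in opposite order. The log2 fold change of Anxa2 was -1.03 for BC44 against C57MG (limma, SE 0.08, adjusted p = 2.17e-05) and -0.26 for BC44 against HC11 (SE 0.08, 0.0356). The latter did not pass in 7 of the 13 alternatives.

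Anxa1, the partner of S100a11, passed in no comparison, with levels of 181 and 184 RPKM in BC44, 149 and 196 RPKM in HC11 and 208 and 216 RPKM in C57MG. Its limma adjusted p-value for HC11 against C57MG was 0.0546, and 0.0308 with the replicate number as a block. That comparison also passed under median-ratio scaling (-0.33, 0.048) and quantile normalization (-0.46, 0.0094), and BC44 against C57MG passed under quantile normalization (-0.31, 0.0419) and with only the 4 libraries compared (-0.215, 0.0182). Without HC11 replicate 2 Anxa1 was lower in HC11 than in C57MG (-0.51, limma adjusted p = 0.00183) and lower in HC11 than in BC44 (0.29 for BC44 against HC11, 0.0245). Leaving out HC11 replicate 1 or HC11 replicate 2, it was lower in BC44 than in C57MG (-0.215 each time, limma adjusted p = 0.0181 and 0.018). Anxa11, a partner of S100a6, was lower in BC44 than in HC11 (log2 fold change -0.42, limma adjusted p = 0.0062) and than in C57MG (-0.58, 6.35e-04). The largest differences among the other annexins were in Anxa8, Anxa6 and Anxa3. Anxa8 was at 234 and 257 RPKM in BC44, 187 and 154 RPKM in C57MG and 62.2 and 68.5 RPKM in HC11, the same order of lines as S100a16. Anxa6 and Anxa3 were highest in HC11, at 162 and 132 RPKM and at 383 and 377 RPKM.

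Between BC44 and HC11, 3 of the 17 other partners had more RNA in BC44 and 9 in HC11. Against C57MG 2 were higher and 11 lower in BC44, and 5 were higher and 7 lower in HC11. Of all tested genes, 24.7% were higher in BC44 and 23.0% in HC11 when these 2 lines were compared. Against C57MG 37.5% were higher and 34.1% lower in BC44, and 37.4% were higher and 33.2% lower in HC11. Myh9, the non-muscle myosin heavy chain that S100a4 binds, was at 109 and 131 RPKM in C57MG, 76.6 and 90.0 RPKM in HC11 and 58.4 and 54.9 RPKM in BC44. It was lower in BC44 than in C57MG (log2 fold change -1.07, SE 0.12, limma adjusted p = 9.76e-05) and lower in HC11 than in C57MG (-0.52, SE 0.12, 0.0046). Myh10, its close relative, went the other way. Myh10 was at 40.6 and 42.0 RPKM in HC11, 24.7 and 24.8 RPKM in BC44 and 0.18 and 0.025 RPKM in C57MG (log2 fold change 4.55 for BC44 against C57MG, SE 0.10, limma adjusted p = 2.71e-07). S100a4 and Myh10 were therefore at opposite ends in C57MG.

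Ahnak, a very large scaffold that binds S100a10 with annexin A2, passed in no comparison (58.4 to 82.5 RPKM over the libraries). Without C57MG replicate 1 it was lower in BC44 and in HC11 than in C57MG (log2 fold changes -0.39 and -0.41, limma adjusted p = 0.0388 and 0.0314). With all libraries, HC11 against C57MG also passed under median-ratio scaling (-0.31, 0.0451). Cacybp, the calcyclin-binding protein that S100a6 docks to, was at 114 and 147 RPKM in BC44, 95.5 and 102 RPKM in HC11 and 134 and 126 RPKM in C57MG. It was lower in HC11 than in BC44 (log2 fold change 0.39 for BC44 against HC11, limma adjusted p = 0.0318) and lower than in C57MG (-0.39, 0.0208). The first call was lost without any 1 of the libraries except BC44 replicate 1 (limma adjusted p-values from 0.0541 to 0.141), and the second without any 1 of the HC11 and C57MG libraries (from 0.052 to 0.107). Plat and Plaur, the tissue plasminogen activator and the urokinase receptor, were lower in BC44 than in either other line (limma adjusted p-values from 2.76e-05 to 5.45e-04). Plat was at 3.30 and 2.90 RPKM in BC44, 26.0 and 43.1 RPKM in HC11 and 20.1 and 18.8 RPKM in C57MG. Plaur was at 7.55 and 10.3 RPKM in BC44, 33.0 and 62.04 RPKM in HC11 and 43.1 and 35.3 RPKM in C57MG. Ager, a cell surface receptor for several S100 proteins, Syt1 and Plg were not listed.

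For the 4 members with the widest range between lines, the tested genes with the most similar profile of log2(RPKM + 1) over the 6 libraries were sought. The measure was the root mean square difference after centring each gene on its own mean. Because 1 is added to each RPKM, genes near 0 RPKM can score as similar though their ratios between lines differ. For S100a14 they were Col11a1 (difference 0.31) and Lgals7 (0.38), with Col11a1 at 85.3 ± 24.3 RPKM in BC44, 8.90 ± 2.89 RPKM in HC11 and 0.288 ± 0.379 RPKM in C57MG (SD, n = 2 each). For S100a4 they were Col6a3 (0.21) and Nsg1 (0.22), with Col6a3 at 125 ± 10.4 RPKM in C57MG and 1.65 ± 1.24 RPKM in BC44 (SD, n = 2 each). In HC11 Col6a3 was at 0.181 ± 0.139 and Nsg1 at 0.0415 ± 0.012 RPKM, whereas S100a4 was at 41.1 ± 8.03 RPKM (SD, n = 2 each). For S100a1 they were Zfp36l2 (0.25) and Twist1 (0.32), with Twist1 at 29.7 and 28.7 RPKM in C57MG, 5.17 and 5.36 RPKM in HC11 and 0.169 and 0.532 RPKM in BC44. For S100a13 they were Ankrd29 (0.11) and Gm14403 (0.13), both highest in C57MG, at 16.6 ± 0.764 and 9.95 ± 0.554 RPKM (SD, n = 2 each). The search covered 10745 genes, and with 3 lines in 6 libraries many genes have similar profiles.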

How the data were processed

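The authors deposited RPKM values for 11417 genes in 6 libraries, rounded to 3 decimals. The aligner STAR and the build mm9 are named in the submitters' processing notes, with no version. The read counter, annotation, gene lengths, strand setting and gene filter are not given in the sources used here. Depth was estimated from 338 to 525 low values per library, multiplied by exonic length from GENCODE M21 (GRCm38), with which all 11417 identifiers matched. The step taken as 1 read left 74.5% to 76.9% of them within 0.15 of a whole read, against 30.0% by chance. Depths, reads and floors are estimates, for counting error only.

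The main test was limma 3.58.1 in R 4.3.3, run on log2(RPKM + 1) with a mean-variance trend in eBayes. The 10759 genes with at least 1 RPKM in at least 2 libraries were tested, in 1 model of all 6 libraries, two-sided, with Benjamini-Hochberg adjustment over all of them within each comparison. With 2 libraries per line, exact permutation could not reach the threshold and was left out. The script was tested on simulated data. Python 3.11.15, numpy 2.4.6, pandas 2.3.3 and matplotlib 3.10.9 did the rest.

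The members, gene lists and tests were chosen with earlier results of these data known. The text names the 8 members, 8 partners picked for their known binding, the 3 further genes of each list with the largest called difference whose libraries did not overlap, and the 2 most similar profiles for 4 members. S100a3, Syt1 and Plg, the marker genes named and the limit of 20 RPKM for markers were chosen after the values were seen. Alternatives tried: pseudocount 0.1, no filter, a mean of at least 5 RPKM, median-ratio scaling, quantile normalization, only the 4 libraries compared, the replicate block and leaving out each library.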

Additional observations from a re-analysis of the deposited data

How the results depend on the processing

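Of 24 member results (8 genes in 3 comparisons), each under 13 alternatives, 305 of the values kept their direction and side of the threshold, 3 newly passed, 2 no longer passed and 2 reversed. Under quantile normalization S100a11 reversed to -0.15 in BC44 against C57MG and to -0.10 in HC11 against C57MG, without passing (limma adjusted p-values 0.121 and 0.265). No scaling moved the median of all genes by over 0.1. The count of members that differed was 5, 7 and 7 for BC44 with HC11, BC44 with C57MG and HC11 with C57MG, and leaving out single libraries gave 4 to 6, 7 and 7 to 8. The counts over all genes stayed within 1.5 times of 5129, 7713 and 7590 under every alternative run. Among partners, leaving out single libraries gave log2 fold changes from -0.077 to 0.133 for Ahnak and -0.101 to 0.293 for Anxa1 in BC44 against HC11, and from -0.184 to 0.179 for Cacybp in BC44 against C57MG. The causes were not tested. Adding the replicate number to the model (a replicate block), 5, 7 and 7 members and 5350, 7875 and 7721 genes passed. Apart from Anxa1 in HC11 against C57MG, the block changed no call of a member or of the 6 tested partners fixed by name. Deviations of same-numbered libraries correlated across genes at 0.354 for BC44 with HC11, -0.039 for BC44 with C57MG and 0.038 for HC11 with C57MG. Same-numbered BC44 and HC11 libraries thus deviated partly together, and the reason was not tested. The labels do not pair the libraries, and the main model did not use the numbers. With 2 libraries per line, a lone library after leaving 1 out is assumed to vary like the others. S100a14 in C57MG and S100a1 in BC44 rest on the fewest estimated reads (24 to 88).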
